A study of Mus musculus with 4 samples.

Results

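Notch signalling passes between touching cells. In rib chondrocytes, the cells that make cartilage matrix, 10 genes of the pathway were followed: the receptors Notch1, Notch2, Notch3 and Notch4, the ligands Jag1, Jag2 and Dll1, and the target genes Hes1, Hey1 and Heyl. They were picked out by gene symbol, and all 10 were found among the 17575 genes listed in the data. The choice of these 10 was made with earlier results of these data known. RNA-seq libraries came from collagenase-digested and plated rib cartilage cells of C57/Bl6 mice aged 10 days. 2 libraries were labelled KO, from mice with a Col2Cre transgene and homozygous floxed (fl/fl) alleles of Kdm6a and of Kdm6b, and 2 were labelled WT, wild type. Col2Cre is used to drive the recombinase in cartilage cells. The labels do not say which cells of the preparation had recombined. They also do not say whether WT mice carried a transgene or floxed alleles. The design mentions sequencing in triplicate, whereas 2 libraries of each genotype are used here. Since no label ties a library to an animal of its own, the p-values reflect only how these libraries vary, and that variation may be technical.

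A Notch receptor bound by a Jagged or Delta ligand on a neighbouring cell is cut by ADAM proteases and then by gamma-secretase. The freed intracellular part enters the nucleus, joins the DNA-binding protein RBPJ and a Mastermind protein, and switches on target genes, many of them Hes and Hey repressors. In cartilage the pathway is known for restraining early chondrocyte differentiation and for acting on later maturation. Kdm6a and Kdm6b encode demethylases that remove the repressive trimethyl mark from lysine 27 of histone H3, a mark that Polycomb complexes place mainly at CpG-rich promoters.

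The letters around the start sites of 4 of these genes show how unlike their promoters are in CpG content. The 250 bases before the annotated start are shown for Notch1, Notch2 and Jag1, the 3 genes that fell in KO cells, and for Notch4, the promoter poorest in CpG, with each CpG in capitals, 5′ to 3′ on the strand of the gene (sequences from RefSeq).
Notch1 (GRCm38.p6, chr2:26503823-26504072, minus strand): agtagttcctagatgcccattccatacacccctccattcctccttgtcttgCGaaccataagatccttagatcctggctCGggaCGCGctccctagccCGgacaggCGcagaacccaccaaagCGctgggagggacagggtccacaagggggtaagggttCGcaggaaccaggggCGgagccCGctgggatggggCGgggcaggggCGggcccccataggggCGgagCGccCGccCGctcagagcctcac
Notch2 (GRCm38.p6, chr3:98013288-98013537, plus strand): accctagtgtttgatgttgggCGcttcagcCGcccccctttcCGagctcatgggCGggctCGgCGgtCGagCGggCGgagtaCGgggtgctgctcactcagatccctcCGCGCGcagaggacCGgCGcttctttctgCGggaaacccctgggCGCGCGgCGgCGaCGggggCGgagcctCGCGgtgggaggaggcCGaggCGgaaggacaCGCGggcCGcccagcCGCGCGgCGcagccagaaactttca
Jag1 (GRCm38.p6, chr2:137116521-137116770, minus strand): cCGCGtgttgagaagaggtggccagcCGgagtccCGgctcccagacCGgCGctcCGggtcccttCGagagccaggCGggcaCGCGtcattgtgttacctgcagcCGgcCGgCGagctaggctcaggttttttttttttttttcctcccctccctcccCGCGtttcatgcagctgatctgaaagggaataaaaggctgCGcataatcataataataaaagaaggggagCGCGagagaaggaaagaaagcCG
Notch4 (GRCm38.p6, chr17:34564045-34564294, plus strand): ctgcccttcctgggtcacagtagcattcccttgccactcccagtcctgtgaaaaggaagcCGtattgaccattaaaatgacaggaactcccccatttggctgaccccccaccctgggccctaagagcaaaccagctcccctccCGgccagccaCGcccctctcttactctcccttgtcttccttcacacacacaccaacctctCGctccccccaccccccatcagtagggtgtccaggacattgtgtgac
These windows held 16 CpGs for Notch1, 34 for Notch2, 20 for Jag1 and 4 for Notch4. The ratio of observed to expected CpG, which corrects for base composition, was 0.588 for Notch1, 1.06 for Notch2, 0.98 for Jag1 and 0.226 for Notch4, where the median over all 32851 such windows in the table was 0.373. CpG was found in 92.1% of all windows. Among the genes not shown, Jag2 had a ratio of 1.14, Notch3 of 0.595 and Dll1 of 0.825 and 0.664 at its 2 listed starts, so ratios above that median were also found at genes that did not pass the test. Windows were found for 7 of the 10 genes, and Hes1, Hey1 and Heyl are named only. The core of the RBPJ binding motif, TGGGAA, was searched on both strands. None of the 8 windows of these genes held it, against 21.6% of all windows, and the longer form GTGGGAA, which contains the core, was likewise in none, against 5.42% of all windows. The N box CACNAG, a motif bound by Hes proteins, was in 3 of the 8 windows, those of Notch1, Notch2 and Notch3, against 36.7% of all windows. These matches describe letters in a short window and say nothing of binding.

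Depth was 32332044 and 32230980 estimated counts in the KO libraries, against 31616619 and 31178248 in the WT libraries. Kdm6b measured 51.4 and 46.2 CPM in KO cells, against 131 and 118 CPM in WT cells, and Kdm6a 28.6 and 31.4 CPM in KO cells, against 52.6 and 56.9 CPM in WT cells, where CPM is the count scaled to a common library size. Both were lower in KO (log2 fold change -1.35, SE 0.091, edgeR adjusted p = 0.00174 for Kdm6b, and -0.87, SE 0.087, edgeR adjusted p = 0.00489 for Kdm6a). Of 10 chondrocyte markers 4 rose (Col2a1, Col9a1, Col11a1 and Matn3), 2 fell (Matn1 and Comp) and 4 did not pass. Over all tested genes 3.62% rose and 5.63% fell. Log2 fold changes were -2.10 for Matn1, 1.95 for Matn3, -1.84 for Comp and 0.55 for Col2a1. Col2a1, the main cartilage collagen gene, measured 37110 and 36600 CPM in KO cells, against 26010 and 24370 CPM in WT cells. The 10 markers together, mostly Col2a1, measured 59720 and 57370 CPM in KO cells, against 43120 and 41850 CPM in WT cells. RNA of marker genes of other cell types was also found, and bulk values cannot tell which cells it came from. 10 endothelial markers summed to 115 and 101 CPM in KO cells, against 150 and 141 CPM in WT cells. 6 fibroblast markers summed to 574 and 800 CPM in KO cells, against 942 and 1415 CPM in WT cells. Of these 6, 2 fell (Col1a2 and Dcn), 0 rose and 4 did not pass. Those 4 had log2 fold changes of -0.51 (Col1a1), -0.035 (Thy1), 0.056 (Col3a1) and 0.12 (Postn).

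Levels between genes can be compared only per length, as FPKM, the fragment count scaled by gene length and library size. Hes1 and Notch2 stood highest of the 10 genes. Hes1 had 19.5 and 16.4 FPKM in KO cells, against 23.2 and 19.5 FPKM in WT cells, and Notch2 had 14.2 and 16.6 FPKM in KO cells, against 20.3 and 22.1 FPKM in WT cells. The values of these genes overlapped within each group, so their order cannot be told. Averaged over the 4 libraries, 80.0% of listed genes had a lower FPKM than Hes1 and 78.7% a lower one than Notch2. Jag1 came next, with 3.90 and 4.25 FPKM in KO cells, against 8.07 and 8.47 FPKM in WT cells. Hey1 and Notch1 changed places between the groups: in KO cells Hey1 lay above Notch1, at 2.52 and 2.53 FPKM beside 1.96 and 1.71 FPKM, and in WT cells it lay below, at 2.43 and 2.35 FPKM beside 3.13 and 2.92 FPKM. Notch4 followed, and the remaining 4 genes were below 1 FPKM in every library. Dll1 and Jag2 overlapped in both groups, Notch3 lay below both, and Heyl was lowest, with 0.05 and 0.12 FPKM in KO cells, against 0.04 and 0.04 FPKM in WT cells.

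**Figure D1:**
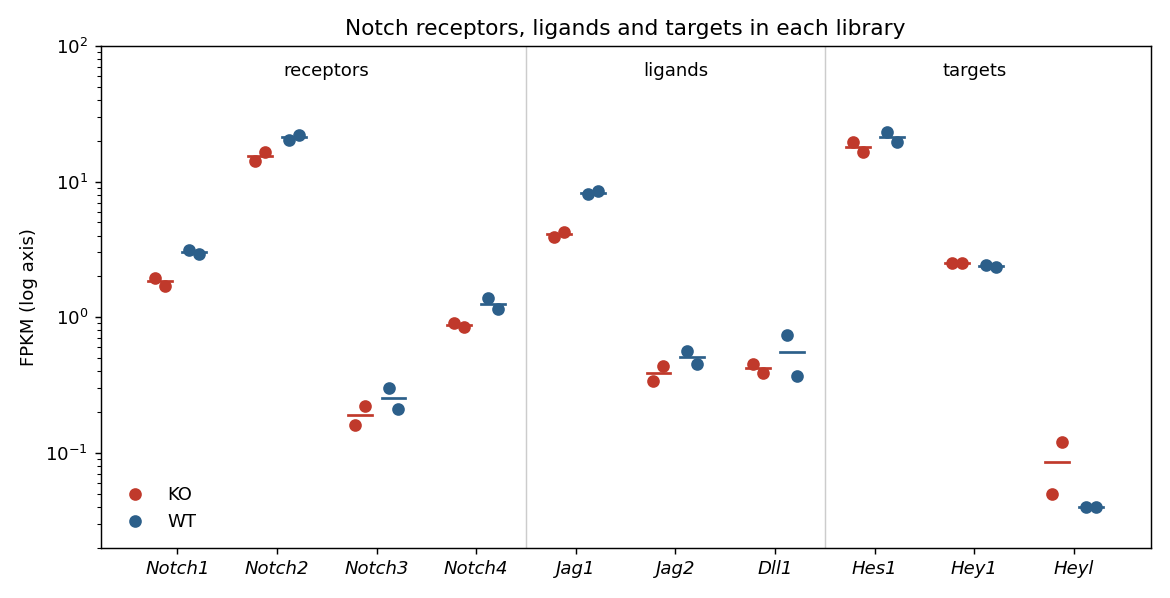
FPKM of each gene on a log axis in the 2 KO libraries (red, left) and the 2 WT libraries (blue, right); each point is a library and each short line the mean of its group. Jag1, Notch1, Notch2 and Notch4 lay lower in both KO libraries than in either WT library, Hey1 was nearly level, and Heyl was close to the bottom of the scale.

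The question of the comparison is which of these genes differ between cells with and without the Kdm6a and Kdm6b deletions. In KO cells Jag1, Notch1 and Notch2 fell, and none of the 10 genes rose. 9 of the 10 had enough counts for the test, all but Heyl, and 3 of these 9 fell at an edgeR adjusted p under 0.05, where 5.63% of the 13773 tested genes (776) fell and 3.62% (498) rose. With limma on log2(FPKM + 0.1), which tested 11970 genes and 6 of the 10, that split was 487 lower and 525 higher, and 2 of the 6 were lower (Jag1 and Notch1), with Notch2 at an adjusted p of 0.0574. With edgeR 4 of the 9 were lower and 0 higher at an unadjusted p under 0.05. Over all 13773 tested genes, 4016 had such a p in either direction. DESeq2 also called 3 lower and 0 higher, where it called 962 lower and 645 higher of all 17547 genes it fitted. 8 of the 9 had a negative log2 fold change, and their median was -0.45, beside 0.0044 over all tested genes. Both KO libraries lay below both WT libraries for 6 of the 9 and above them for 1, where 30.7% and 30.9% of all tested genes did so. In bulk samples fewer cells of a type and less RNA per cell cannot be told apart.

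Among the receptors, Notch2 carried most of the RNA. Its share of the summed FPKM of the 4 receptors was 82.4% and 85.7% in the KO libraries, against 80.8% and 83.8% in the WT libraries. Notch1 made up 11.4% and 8.85% in KO cells, against 12.5% and 11.1% in WT cells, Notch4 5.29% and 4.35% in KO cells, against 5.50% and 4.32% in WT cells, and Notch3 0.930% and 1.14% in KO cells, against 1.20% and 0.795% in WT cells. For each of the 4 receptors the shares in KO and WT overlapped; no test was made on them. Summed over the 4, receptor RNA was lower, at 17.2 and 19.3 summed FPKM in KO cells, against 25.1 and 26.4 in WT cells.

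Notch1, the founding receptor of the family, measured 18.6 and 16.3 CPM in KO cells, against 30.0 and 28.8 CPM in WT cells. The libraries of the groups stood well apart. It fell 1.69-fold (log2 fold change -0.75, SE 0.10, 95% interval -0.998 to -0.51, edgeR adjusted p = 0.0114). Notch2, the most abundant receptor, measured 149 and 174 CPM in KO cells, against 216 and 241 CPM in WT cells. The higher KO library and the lower WT library were closer here than for Notch1. Notch2 fell 1.42-fold (log2 fold change -0.50, SE 0.10, 95% interval -0.75 to -0.25, edgeR adjusted p = 0.0347). Its call held under fewer alternatives than that of Notch1, which passed in 12 of 17. Without KO replicate 1 its edgeR adjusted p was 0.0737, without the filter on low counts 0.0667, and over the 17 alternatives the adjusted p ran from 0.000604 to 0.252, and it passed 0.05 in 8 of them. Without WT replicate 1 or WT replicate 2 the edgeR adjusted p of Notch1 was 0.116 and 0.192, and that of Notch2 0.131 and 0.252, with log2 fold changes that stayed negative. In DESeq2 Notch1 lost its call without WT replicate 1 (adjusted p = 0.0807) or WT replicate 2 (0.0531), and Notch2 without KO replicate 1 (0.115) or WT replicate 2 (0.203).

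Notch4, a receptor known mainly from endothelial cells, measured 6.01 and 5.52 CPM in KO cells, against 9.20 and 7.77 CPM in WT cells. Both KO libraries were lower than both WT libraries, and the difference did not pass (log2 fold change -0.56, SE 0.15, 95% interval -0.93 to -0.19, edgeR adjusted p = 0.0714). Notch3, known from mural cells of vessels, had 42 and 57 counts in KO cells, against 75 and 53 counts in WT cells. Its groups overlapped, and at so few counts its 95% interval reached from -1.15 to 0.26 on the log2 scale (edgeR adjusted p = 0.355). The interval of Notch3 holds both 0 and the fall measured for Notch1, so these counts do not tell one from the other.

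Among the ligands, Jag1 made up 83.2% and 83.7% of the summed FPKM of the 3 in KO cells, against 86.1% and 91.2% in WT cells. Jag1, which encodes a Jagged ligand, measured 21.3 and 23.3 CPM in KO cells, against 44.7 and 48.1 CPM in WT cells. Each KO library lay well below each WT library. Jag1 fell 2.08-fold (log2 fold change -1.06, SE 0.089, 95% interval -1.27 to -0.85, edgeR adjusted p = 0.00274). This was the largest fall of the 9 tested genes, and it ranked 208 by log2 fold change among the 776 falling genes. In edgeR the call was lost without WT replicate 1 (adjusted p = 0.0992) or WT replicate 2 (adjusted p = 0.16), where no gene passed at all and 3442 and 2587 genes had an unadjusted p under 0.05, and in DESeq2 it was kept without any of the 4 libraries. Over 17 alternatives the adjusted p of Jag1 ran from 1.88e-13 to 0.16 and its log2 fold change from -1.11 to -0.87.

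The other ligands were scarce. Jag2, the second Jagged ligand, had 45 and 58 counts in KO cells, against 72 and 57 in WT cells, and Dll1, a Delta-like ligand, had 50 and 43 counts in KO cells, against 81 and 40 in WT cells. Scaled to CPM, Dll1 overlapped between KO and WT, and Jag2 was narrowly lower in both KO libraries. Neither passed, with log2 fold changes of -0.40 (SE 0.27, edgeR adjusted p = 0.36) for Jag2 and -0.45 (SE 0.36, edgeR adjusted p = 0.447) for Dll1. The value of Dll1 rests on WT replicate 1, without which its log2 fold change was 0.11 (edgeR adjusted p = 0.839). The 95% interval of Dll1 reached from -1.32 to 0.43 and that of Jag2 from -1.04 to 0.24. The summed ligand level was 4.69 and 5.08 FPKM in KO cells, against 9.37 and 9.29 FPKM in WT cells, most of it Jag1.

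**Figure D2:**
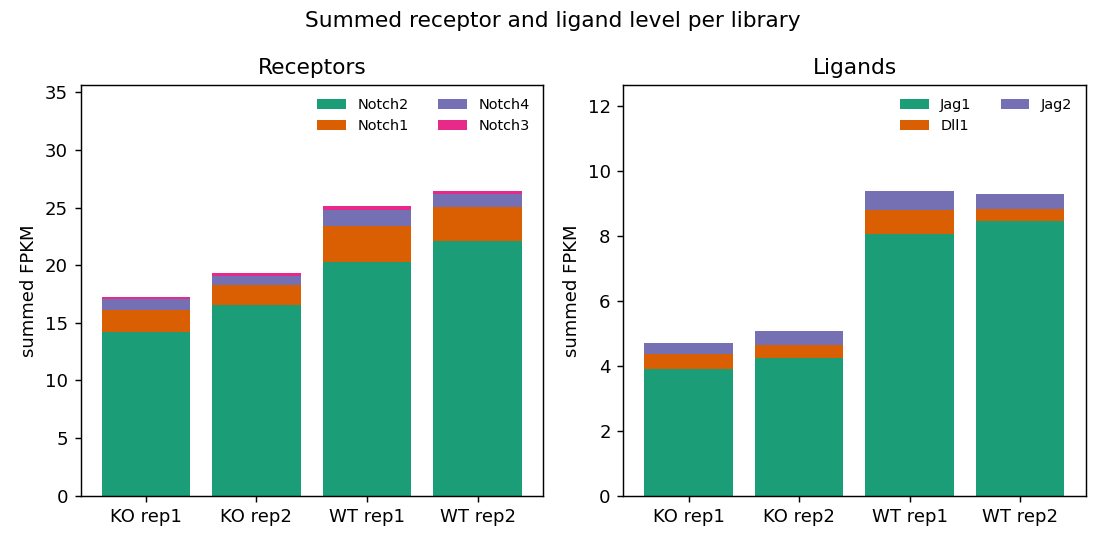
Summed FPKM of the 4 receptors (left) and the 3 ligands (right) in each library, with the part of each gene stacked; the KO libraries stand left of the WT libraries. Notch2 and Jag1 form most of each bar, and both KO bars are shorter than both WT bars in each panel.

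None of the 3 target genes passed. Hes1, a repressor and the best known Notch target, measured 28.3 and 23.9 CPM in KO cells, against 34.1 and 29.4 CPM in WT cells. Both KO libraries lay below both WT libraries, with a gap between the nearest libraries that was smaller than the gap between replicates (log2 fold change -0.28, SE 0.12, 95% interval -0.57 to 0.0021, edgeR adjusted p = 0.173). The interval leaves room for a fall of Hes1 of the size found for Notch2. Hey1, a repressor of the Hey family, measured 5.49 and 5.52 CPM in KO cells, against 5.38 and 5.33 CPM in WT cells. The 4 libraries were nearly level (log2 fold change 0.041, SE 0.15, 95% interval -0.31 to 0.39, edgeR adjusted p = 0.88). The interval of Hey1 does not reach the estimates for Jag1, Notch1 or Notch2, but it overlaps the interval of Notch2, from -0.75 to -0.25. Whether the change of Hey1 differs from that of Jag1, Notch1 or Notch2 was not tested. Heyl had 8 and 17 counts in KO cells, against 6 and 6 in WT cells, too few for the filter. Without the filter its log2 fold change was 0.98 (SE 0.60, edgeR adjusted p = 0.389). KO replicate 2, where Heyl was highest, also held the most RNA of 6 skeletal muscle markers, with summed levels of 4.46 and 19.6 CPM in KO cells, against 7.59 and 6.62 CPM in WT cells, and their part in the Heyl count was not tested.

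**Figure D3:**
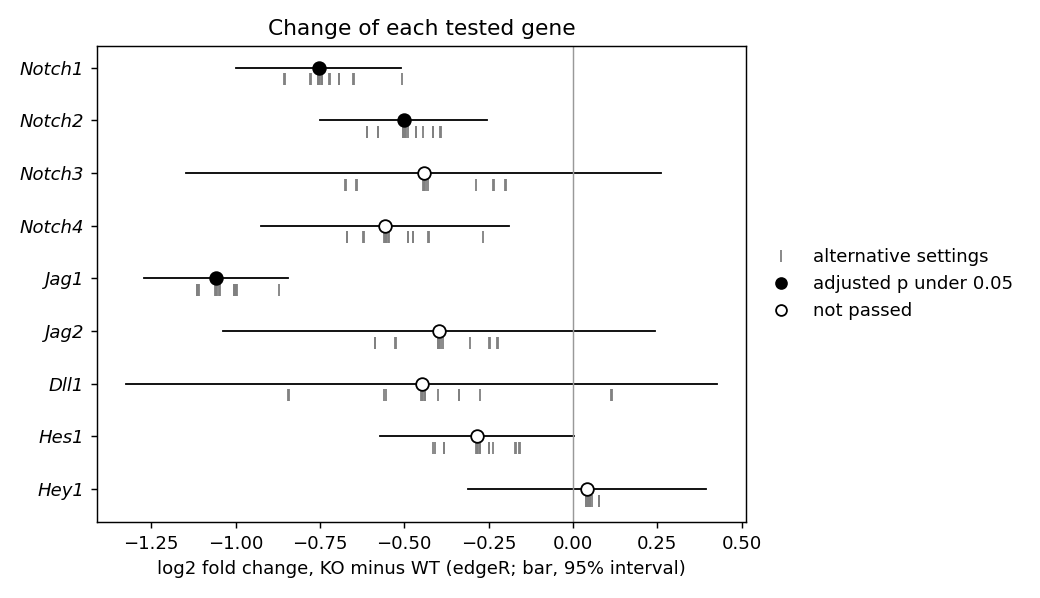
Log2 fold change, KO minus WT, of the 9 tested genes by edgeR; circles are the estimates (filled where the adjusted p was under 0.05), bars the 95% intervals and grey ticks the values under the alternative settings. Jag1, Notch1 and Notch2 are filled and lie left of 0 under every setting, whereas the ticks of Dll1 fall on both sides of 0 and those of Hey1 lie near it.

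In the authors' deposited table, a DESeq2 comparison of CKO with Control, Jag1, Notch1 and Notch2 had an adjusted p under 0.05 and the other 7 genes did not. The authors' deposited table gave Jag1 a mean normalized count of 713 in CKO and 1465 in Control, with a log2 fold change of -1.04 and an adjusted p of 2.06e-13. The authors' deposited table lists log2 fold changes of -0.74 for Notch1 (adjusted p = 2.78e-05) and -0.49 for Notch2 (adjusted p = 0.000845), and in it 5.19% of 17529 genes were lower in CKO at that threshold, 3.33% higher and 8.52% either. Only Jag1 of the 10 genes is marked as regulated in the authors' deposited table, which marks 1.58% of its genes.  Its values come from these same libraries and are no independent evidence.

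Several Notch genes are known from vessel cells, and some endothelial markers fell in KO. Of the 10 endothelial markers 3 fell, 0 rose and 7 did not pass in edgeR, where 5.63% of all tested genes fell and 3.62% rose. At an unadjusted p under 0.05, 6 were lower and 0 higher, where 4016 of the 13773 tested genes passed in either direction. By DESeq2 3 were lower and 0 higher, where 962 of all 17547 genes it fitted were lower and 645 higher. The median log2 fold change of the 10 markers was -0.39, Erg was at 0.12 and Cldn5 overlapped between KO and WT. Cdh5, a junction protein of endothelium, measured 28.7 and 23.2 CPM in KO cells, against 41.8 and 36.4 CPM in WT cells (log2 fold change -0.59, SE 0.13, edgeR adjusted p = 0.039). Pecam1 and Tek, further endothelial surface proteins, fell by 0.53 and 0.79 on the log2 scale, and none of the 10 markers was at 0 in any library. Notch4 (-0.56) and the ligand gene Dll4 (-0.49), both known from endothelium, had log2 fold changes close to these, and neither passed. Jag1 and Notch1 are expressed by endothelium too. The log2 fold change of Jag1, -1.06, was further below 0 than that of any of the 10 endothelial markers. Those of Notch1, -0.75, and Notch2, -0.50, lay within the range of these markers. Among tested fibroblast and macrophage markers, Ptprc (-1.45) and Col1a2 (-1.18) lay below Jag1, Dcn (-1.06) was level with it, and the others lay above it. The part of endothelial RNA in the values of Jag1, Notch1, Notch2 and Notch4 was not tested. Of 11 markers of mural and smooth muscle cells, 2 rose (Acta2 and Tagln), 0 fell and 9 did not pass. The log2 fold changes of these 11 were above 0 in 8 and below 0 in 3, with Rgs5 at 0.30 and Myh11 at -0.68. 7 macrophage markers summed to 20.8 and 21.9 CPM in KO cells, against 30.3 and 27.9 CPM in WT cells. Of the 5 tested 0 passed in edgeR and 1 was lower by DESeq2. Their log2 fold changes were below 0 in 4 and above 0 in 1. Cd68 held most of each sum (log2 fold change -0.24, edgeR adjusted p = 0.282). Larger falls were measured for Ptprc (-1.45, edgeR adjusted p = 0.0588) and Csf1r (-0.76, edgeR adjusted p = 0.0891), without passing. Mrc1 was at -0.21 and Adgre1 at 0.21.

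**Figure D4:**
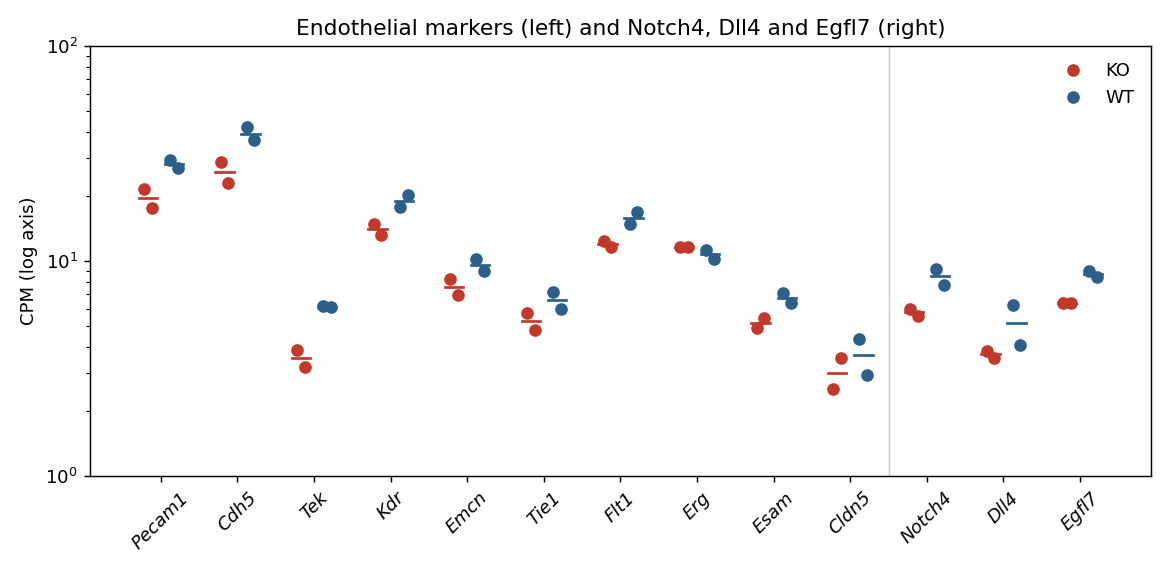
CPM on a log axis of 10 endothelial markers and, right of the line, of Notch4, Dll4 and Egfl7 in the 2 KO libraries (red, left) and the 2 WT libraries (blue, right); points are libraries and lines group means. In 8 of the 10 markers both KO libraries lay below both WT libraries, as they did in 30.7% of all tested genes. The same held for Notch4, Dll4 and Egfl7.

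Further genes of the pathway changed in both directions. Of 62 further pathway genes 57 were tested, of which 4 rose, 3 fell and 50 did not pass, where 9.25% of all tested genes passed in either direction. At an unadjusted p under 0.05, 7 were higher and 11 lower, where 4016 of the 13773 tested genes passed in either direction. Their median log2 fold change was -0.043. The genes that rose were Dlk1, Dlk2, Hes6 and Poglut1, and those that fell included Tle3 and Crebbp.

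Dlk1 and Dlk2, Delta-like proteins that lack the domain by which classical ligands bind and that are held to dampen Notch signalling, both rose. Dlk1 measured 1417 and 1160 CPM in KO cells, against 751 and 826 CPM in WT cells (log2 fold change 0.71, SE 0.11, edgeR adjusted p = 0.0171). Dlk2 measured 7.26 and 8.04 CPM in KO cells, against 4.71 and 4.08 CPM in WT cells (log2 fold change 0.80, SE 0.16, edgeR adjusted p = 0.031). In both genes the libraries of the groups stood apart. Without KO replicate 2 the edgeR adjusted p of Dlk2 was 0.0639, and over its 17 alternatives it ran from 0.0127 to 0.602. Per length Dlk1 had 329.5 and 269 FPKM in KO cells, against 172 and 185 FPKM in WT cells, far above Jag1. Of the classical ligands outside the 10 genes, Dll4 (-0.49) and Dll3 (-0.036) did not pass. Egfl7 and Mfap5, secreted proteins reported to bind Notch proteins, had log2 fold changes of -0.45 and -0.52 and did not pass.

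Poglut1, which adds O-glucose to Notch receptors, measured 64.3 and 63.6 CPM in KO cells, against 52.8 and 51.4 CPM in WT cells (log2 fold change 0.30, SE 0.069, edgeR adjusted p = 0.0475). The call is marginal: leaving out any of the 4 libraries ended it, with edgeR adjusted p-values from 0.117 without KO replicate 2 to 0.229 without WT replicate 2. Pofut1, which adds O-fucose, and Rfng, which extends it, did not pass (0.21 and 0.015). In the cleavage machinery 0 of 10 genes passed in edgeR, with 1 higher and 1 lower at an unadjusted p under 0.05 and 1 lower by DESeq2. Furin, the protease that first processes the receptor, was at -0.35 (edgeR adjusted p = 0.0956) and the gamma-secretase subunit gene Aph1a at -0.043. None of 4 ligand endocytosis genes passed in edgeR, with 1 lower at an unadjusted p under 0.05 and 0 by DESeq2. Mib1 and Mib2, ubiquitin ligases of the ligands, were at -0.049 and -0.18. The 1 lower was Neurl1a, at -1.13 (edgeR adjusted p = 0.0572), with 26 and 25 counts in KO cells, against 54 and 52 in WT cells. Neurl1b was at -0.41. None of 9 genes of receptor trafficking and turnover passed in edgeR, with 3 lower at an unadjusted p under 0.05 and 0 by DESeq2. Itch and Numbl were at -0.054 and 0.20. The 3 lower were Numb (-0.26), Dtx2 (-0.29) and Dtx1 (-1.31), the last with 18 and 7 counts in KO cells, against 23 and 36 in WT cells. Over all 13773 tested genes, 4016 had an unadjusted p under 0.05 in edgeR. DESeq2 called 962 lower and 645 higher of all 17547 genes it fitted.

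In the nucleus the coactivator gene Crebbp and the corepressor gene Tle3 fell. Tle3, of the Groucho family that Hes proteins recruit, measured 25.4 and 27.8 CPM in KO cells, against 42.1 and 39.1 CPM in WT cells (log2 fold change -0.61, SE 0.089, edgeR adjusted p = 0.0134). Crebbp, an acetyltransferase, measured 48.6 and 46.9 CPM in KO cells, against 64.1 and 58.1 CPM in WT cells (log2 fold change -0.36, SE 0.080, edgeR adjusted p = 0.0432). Leaving out any of the 4 libraries ended the edgeR call of Crebbp, with adjusted p-values from 0.086 without KO replicate 1 to 0.198 without WT replicate 2. Rbpj itself measured 103 and 98.1 CPM in KO cells, against 101 and 104 CPM in WT cells (log2 fold change -0.029, SE 0.071, edgeR adjusted p = 0.815). Its 95% interval, from -0.20 to 0.14, is narrow beside the fall of Jag1. Ep300 and Kat2a, further acetyltransferases, were at -0.12 and 0.19, and the corepressor genes Ncor1 and Spen at -0.17 and -0.28, without passing.

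Hes6, a Hes family member known to counteract Hes1, rose, with 10.7 and 11.4 CPM in KO cells, against 6.93 and 6.19 CPM in WT cells (log2 fold change 0.75, SE 0.13, edgeR adjusted p = 0.0235). Hes2, Hes3, Hes5 and Hes7 had at most 3 counts in any library. Nrarp, a feedback inhibitor that Notch switches on, had 34 and 23 counts in KO cells, against 45 and 24 in WT cells, and Hey2 had 15 and 8 in KO cells, against 22 and 17 in WT cells. Neither passed, with log2 fold changes of -0.35 (SE 0.41) for Nrarp and -0.83 (SE 0.46) for Hey2. In edgeR the calls of Dlk1, Dlk2, Hes6 and Tle3 were also lost without WT replicate 1 or WT replicate 2, with adjusted p-values from 0.117 to 0.22; in DESeq2 the call of Dlk1 was kept without any of the 4 libraries. In DESeq2 the leave-outs ended the call of Dlk2 in all 4 (adjusted p = 0.245 to 0.602), of Hes6 in all 4 (0.173 to 0.453) and of Tle3 in 3 of 4, all but the one without KO replicate 2 (0.0676 to 0.159 in those 3).

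**Figure D5:**
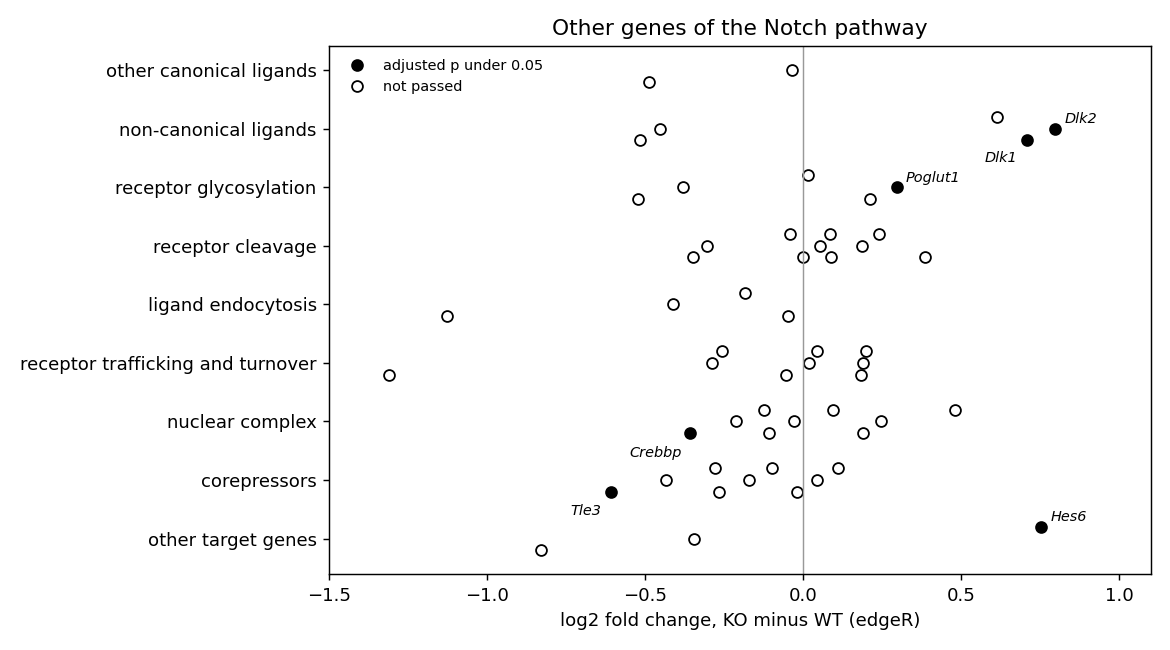
Log2 fold change, KO minus WT, of the tested pathway genes outside the 10, by role, with 1 gene not shown; filled points passed an edgeR adjusted p of 0.05 and are named, open points did not pass. The cleavage, ligand endocytosis and receptor turnover rows hold open points only, and the 6 filled points lie on both sides of 0.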

How the data were processed

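Total RNA of plated rib chondrocytes was sequenced, per the labels. The submitters' processing notes name Bowtie2 2.2.5 and build mm9; how reads were counted, with which annotation and strand setting, was not given in the sources used. Deposited per library by the authors were an expected count and an FPKM per gene and library, per the file headers, and a DESeq2 table with group means on a normalized signal scale, log2 fold changes, p-values and adjusted p-values. Genes absent from a library's list counted as 0. Groups came from sample titles. Rounded expected counts went into edgeR 4.0.16 under R 4.3.3 (TMM, filterByExpr, quasi-likelihood F test, KO against WT, Benjamini-Hochberg over 13773 genes, calls at 0.05). Each SE was obtained by dividing the fold change (log2) by the root of the F statistic. Depth was 31178248 to 32332044 counts; the biological coefficient of variation was 10.3%. Replicates differed by more than counting noise (chi-square per gene 20.8 in KO, 19.0 in WT). The test was checked on simulated data with independent libraries and the same coefficient of variation for every gene. That check cannot show whether the real libraries are independent. Each of the 10 genes is listed with 1 transcript. Alternatives used DESeq2 1.42.0 and limma 3.58.1 on log2(FPKM + 0.1) or log2(FPKM + 1), for genes at 0.5 FPKM or more in 2 libraries. Sequences are from GRCm38.p6, and no mm9 coordinates were used. The 10 genes, the lists and the tests were chosen with earlier results of these data known. Named pathway genes are those past the threshold and up to 2 others per role with the highest CPM. Rbpj, Neurl1a, Neurl1b, Numb, Dtx1, Dtx2, Hes2, Hes3, Hes5, Hes7 and the endothelial and other marker genes were named after their values were seen. 1 pathway gene is counted in the totals and is not reported here.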

Additional observations from a re-analysis of the deposited data

How the results depend on the processing

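Of 147 comparisons of a Notch gene's log2 fold change with an alternative setting, 127 kept direction and crossed no threshold, 17 lost the call, 1 gained it and 2 reversed. In 6 of the 147, DESeq2 fits of Notch3, Jag2 and Dll1 without a WT library, no adjusted p was given, so those have no side of the threshold. The reversals were those of Dll1 without WT replicate 1, at 0.11 in edgeR and 0.12 in DESeq2, against -0.84 in edgeR without WT replicate 2; the cause was not tested. The counts of Notch genes called lower were 0 to 3 with a library left out by edgeR or DESeq2, of other pathway genes 0 to 3 higher and 0 to 2 lower, and of all genes 0 to 450 higher and 0 to 825 lower. Leave-out fits by DESeq2 gave, without KO replicate 1, KO replicate 2, WT replicate 1 and WT replicate 2 in that order, 187, 222, 190 and 125 genes higher and 447, 561, 354 and 292 lower, 1 pathway gene higher each time, and 1, 2, 0 and 2 pathway genes lower. The zeros came from edgeR without either WT library, where 3 and 5 Notch genes had an unadjusted p under 0.05 and DESeq2 called 2 and 1, and, for lower pathway genes, also from DESeq2 without WT replicate 1. In such a fit the lone library is assumed to vary like the other group. DESeq2 with a library left out was added after seeing the data. Without the filter, edgeR called 265 genes higher and 455 lower, and 2 pathway genes higher. With limma, 487 genes were lower with a pseudocount of 0.1 and 499 with 1; with no filter on FPKM limma called 0 genes, 0 Notch genes and 0 pathway genes, with 4055 genes at an unadjusted p under 0.05. The replicate numbers are not stated to pair samples, and deviations of same-numbered libraries correlated at 0.107 across genes. With the replicate block 949 genes were higher and 1367 lower, 6 pathway genes were lower, and Notch4 passed (log2 fold change -0.55, edgeR adjusted p = 0.0371, over its alternatives 0.0371 to 0.744). Counts below about 100 limit Notch3, Jag2, Dll1 and Heyl.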
